A study of Homo sapiens with 12 samples.

Results

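Integrins are the cell surface receptors for the extracellular matrix, and laminins and collagens are the 2 large families of proteins they bind. The genes described here are those of the deposited expression tables whose symbol names an integrin subunit, a laminin chain or a collagen chain, together with NTN4, FN1, SPARC, THBS1, NID1, NID2, HSPG2 and AGRN, 8 genes of other matrix proteins. Of the 8842 genes in the tables, 45 met this rule: 10 integrins, 8 laminins, 20 collagens and 7 of the 8 other matrix genes. By RefSeq annotation 89 protein-coding genes meet it, and 44 of them are missing from the tables, among them ITGAV, ITGA5, ITGA3, ITGB4, NID2, COL1A2 and COL6A1. How the authors chose the tabulated genes is not stated.

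The data are RNA-seq of HepG2 and LM3, both established human liver cancer cell lines. Cells of each line were transfected with siFASRL, an siRNA against the long noncoding RNA FASRL, or with the control siRNA siNC, and were harvested 48 h later. Each of the 4 groups has 3 replicates, which makes 12 libraries. The study made these libraries to look for genes downstream of FASRL. FASRL itself is not among the tabulated genes, so its level cannot be given, and which of the siRNA sequences was used for sequencing is not stated. Values are the normalized RSEM values of the authors, whose scale is not stated as FPKM or TPM, so read depth and counting error are unknown. Below, values are listed by replicate, those of siNC before those of siFASRL.

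Laminins are trimers of an α, a β and a γ chain that assemble into the sheet of a basement membrane, where type IV collagen forms a second network and nidogen, perlecan and agrin link or stabilise the sheets. Fibrillar collagens such as types I and III build the fibres of connective tissue, and fibronectin and SPARC are deposited among them. In normal liver the sinusoids lack a continuous basement membrane, plasma fibronectin comes from hepatocytes, and fibrillar collagen is made mainly by stellate cells and fibroblasts.

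The lines differed in their hepatocyte markers. Of 13 hepatocyte markers 11 were tabulated, with SERPINA1 the most abundant, and their summed values were 4395, 4369 and 3958 in HepG2 siNC and 2454, 2478 and 2504 in HepG2 siFASRL. APOA2 did not fall with the sum, at 639, 682 and 569 in HepG2 siNC and 681, 800 and 791 in siFASRL. In LM3 the sums were only 31.4, 40.3 and 39.8 under siNC and 25.3, 24.8 and 23.2 under siFASRL, and HNF4A and RBP4 made up most of them, while TTR was at 0 in 5 of the 6 libraries. ALB, the gene of serum albumin, was listed at 851, 805 and 789.8 in HepG2 siNC and at 0.06, 0.62 and 0.4 in LM3 siNC, so that LM3 all but lacked it. The epithelial keratin KRT18, the most abundant of 4 tabulated epithelial markers of 5, was high in both lines, at 658, 732 and 694 in HepG2 siNC and 855, 998 and 969 in LM3 siNC. The 4 epithelial markers summed to a mean of 855.9 in HepG2 siNC, 1038 in HepG2 siFASRL, 946.6 in LM3 siNC and 760.0 in LM3 siFASRL. The higher sum in HepG2 siFASRL came from KRT18 and KRT19, whereas EPCAM was 33.3, 30.8 and 30.3 under siNC and 15.5, 15.01 and 15.3 under siFASRL, and CDH1 8.23, 7.63 and 7.21 and 1.84, 1.97 and 2.16.

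**Figure D1:**
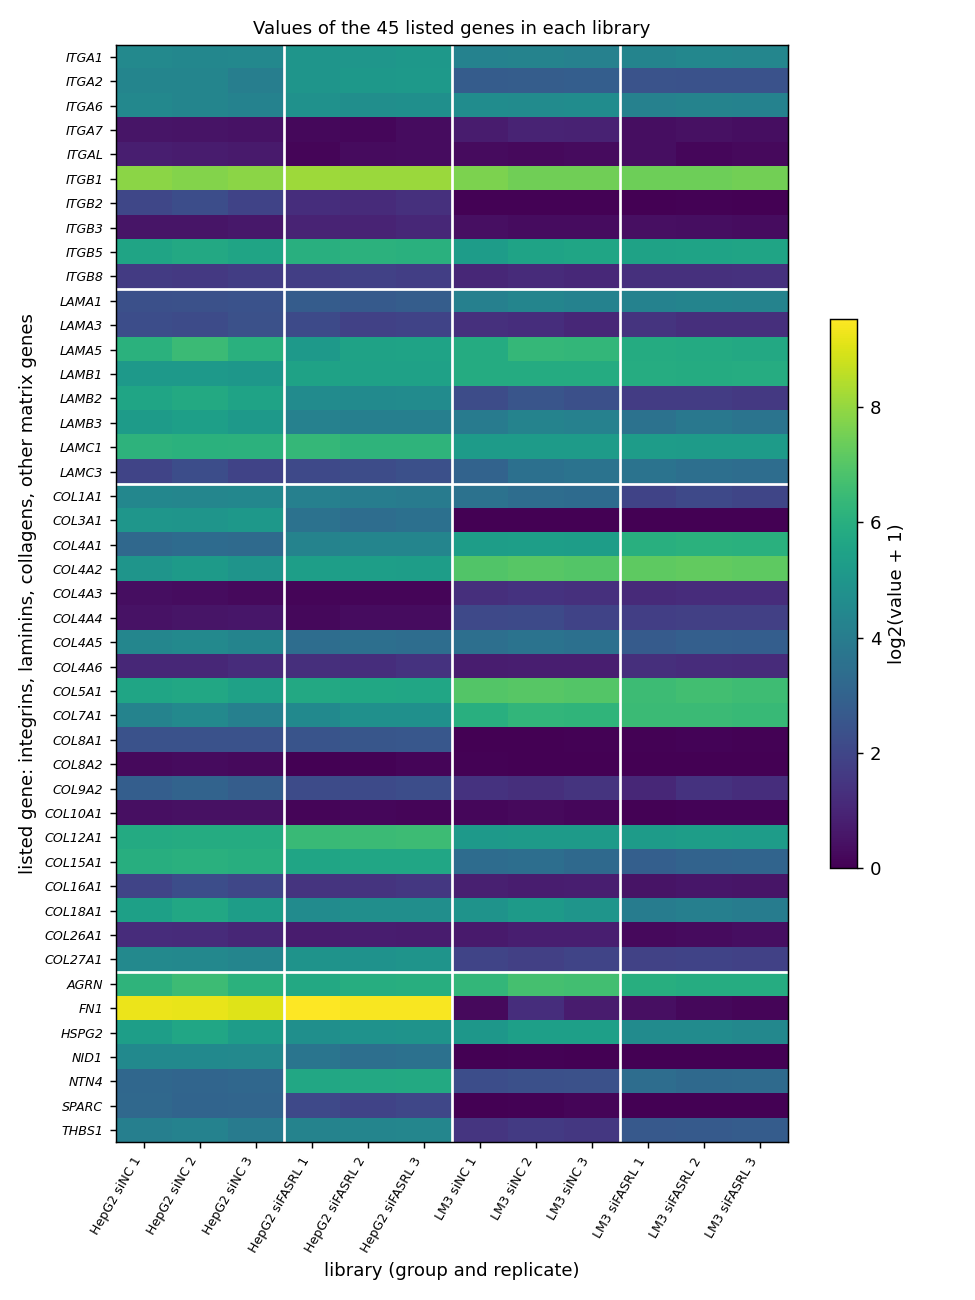
Values of the 45 genes in each of the 12 libraries, coloured by log2(value + 1), with genes in rows by family and libraries in columns by group. FN1, ITGB1 and COL4A2 are among the brightest rows, and FN1, COL3A1, NID1, SPARC, COL8A1 and ITGB2 are dark in all 6 LM3 libraries.

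After FASRL knockdown the matrix genes of HepG2 moved in both directions. NTN4 and COL4A1 rose and COL3A1, SPARC, LAMB3 and LAMB2 fell past the threshold, a change of 1 or more in either direction on log2(value + 1) with an adjusted p under 0.05 (limma with Benjamini-Hochberg adjustment over all genes tested). In LM3, NTN4 and THBS1 rose and COL1A1 fell past it. Of 38 members tested in HepG2, 2 (5.26%) were called higher, where 3.61% of all 8144 tested genes were, and 4 (10.5%) were called lower, where 6.79% were. Of 32 members tested in LM3, 2 (6.25%) were called higher and 1 (3.12%) lower, where 1.42% and 6.2% of all 7483 tested genes were. By adjusted p alone 34 of the 38 changed in HepG2, 17 up and 17 down, and 22 of the 32 in LM3, 8 up and 14 down. In LM3 the split depended on scaling, with 12 up and 12 down under median-of-ratios scaling and 11 and 13 under quantile normalization. These are 89.5% and 68.8% of the members. Of all tested genes 89.1% passed on adjusted p in HepG2 and 77.4% in LM3, so such changes were common among the tabulated genes. These shares hold for the tabulated genes only, since few genes with a small fall in HepG2 are tabulated (0.188% of effects lay between -0.20 and -0.04 in HepG2 and 10.4% in LM3). In HepG2 the siFASRL and siNC values of 36 of the 38 members did not overlap, where 89.6% of all genes did not, and in LM3 those of 24 of the 32, where 80.1% did not. The median log2 fold change of the members was 0.13 in HepG2 and -0.06 in LM3, and that of all tested genes was 0.10 and -0.06. Because 1 is added to each value, these fold changes understate the change of genes with low values. In cultures, fewer cells of a kind and less RNA per cell cannot be told apart.

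Of the 30 members tested in both lines, 7 had an adjusted p under 0.05 with higher values after knockdown in both (COL4A1, COL4A2, COL4A6, COL7A1, ITGA1, NTN4 and THBS1). Another 9 were lower in both (AGRN, COL15A1, COL18A1, COL1A1, COL4A5, HSPG2, LAMA5, LAMB2 and LAMB3). ITGA2 and ITGA6, 2 integrin α subunits, rose in HepG2 but fell in LM3, and 0 of the 30 did the opposite with both adjusted p values under 0.05. LAMC1 and LAMC3, 2 laminin γ chains, passed in neither line, although LAMC3 passed as higher in both after GC adjustment (0.36 in HepG2 and 0.36 in LM3) and in HepG2 under quantile normalization. Members higher in both were 23.3% of the 30 and those lower in both 30%, where 29.6% and 36% of all 7349 genes tested in both lines were. Those that rose in HepG2 and fell in LM3 were 6.67% of members and 4.68% of all genes, and the opposite held for 0.626% of all genes.

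**Figure D2:**
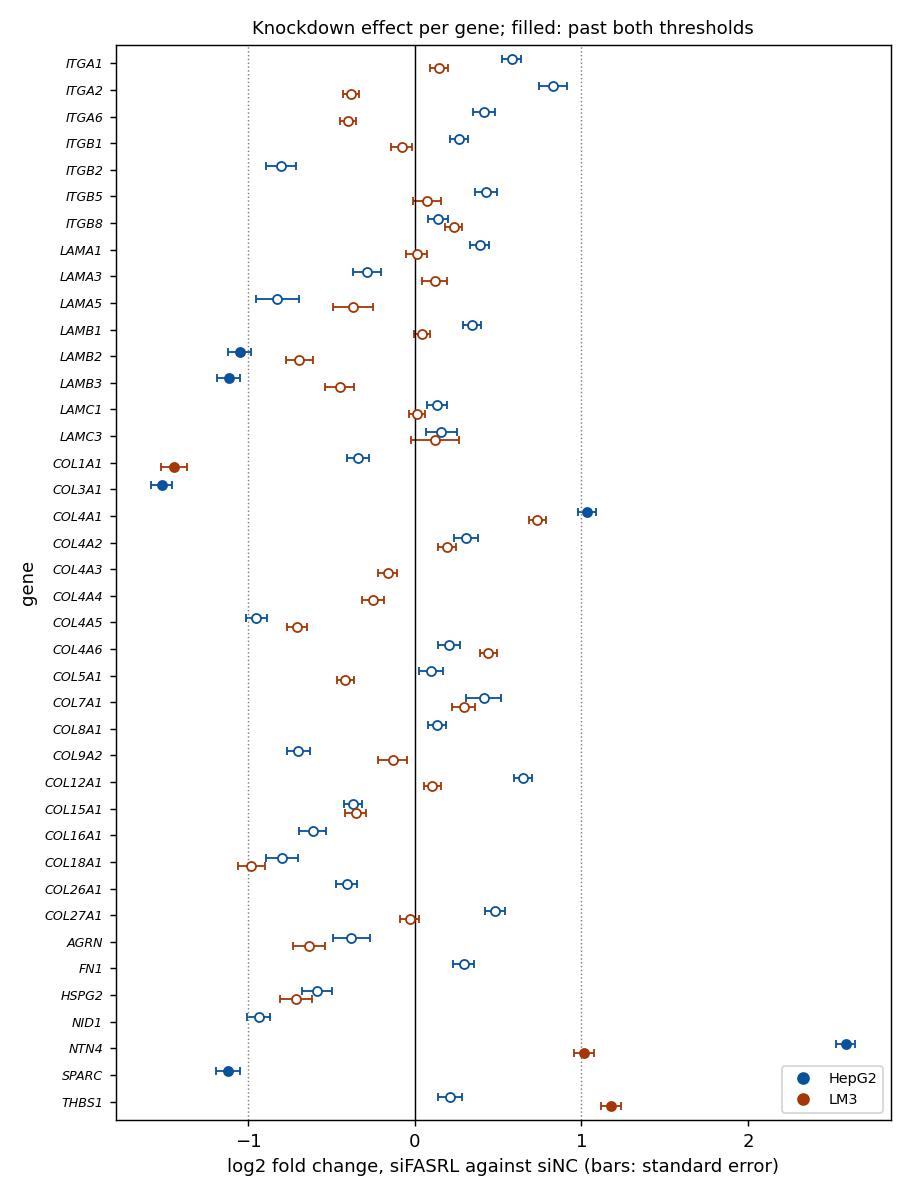
Log2 fold change of siFASRL against siNC for each member tested in at least 1 line, with standard errors, HepG2 in blue and LM3 in brown. Filled points passed both thresholds and dotted lines mark a log2 fold change of 1 in either direction; NTN4 in HepG2, at 2.59, lies farthest from 0.

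NTN4 encodes netrin-4, a secreted relative of the laminins that binds laminin γ chains and opens up laminin networks. Its value was 8.19, 7.61 and 8.14 in the 3 HepG2 siNC libraries and 51.6, 52.5 and 54.9 in the 3 siFASRL libraries. In LM3 it was 3.77, 4.02 and 4.1 under siNC and 9.69, 8.61 and 8.82 under siFASRL. In both lines every siFASRL value lay above every siNC value. The mean rose from 7.98 ± 0.321 (SD, n = 3) to 52.98 ± 1.696 in HepG2, 6.64-fold, with a log2 fold change of 2.59 (standard error 0.057, adjusted p = 3.24e-09) by limma with Benjamini-Hochberg adjustment. In LM3 it rose from 3.96 ± 0.172 to 9.04 ± 0.573 (SD, n = 3), 2.28-fold, with a log2 fold change of 1.02 (standard error 0.059, adjusted p = 1.72e-06) by the same test. The LM3 value sits near the threshold: without LM3 siFASRL replicate 1 it was 0.97 and without LM3 siNC replicate 1 it was 0.99, whereas a pseudocount of 0.1 gave 1.17 and quantile normalization 1.26. NTN4 lies at chr12:95657807-95791155 on GRCh38.

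THBS1 encodes thrombospondin-1, a matricellular glycoprotein that binds CD47, CD36 and several integrins. In HepG2 its value was 16.5, 17.7 and 14.8 under siNC and 18.3, 19.02 and 19.8 under siFASRL. In LM3 it was 1.74, 2.05 and 1.93 and 5.34, 5.57 and 5.79. The groups were separate in both lines, by a wide margin in LM3 and by a narrow one in HepG2. The LM3 mean rose 2.92-fold from 1.91 ± 0.156 to 5.57 ± 0.225 (SD, n = 3), with a log2 fold change of 1.18 (standard error 0.058, adjusted p = 8.48e-07) by limma with Benjamini-Hochberg adjustment. In HepG2 the log2 fold change was 0.21 (standard error 0.071, adjusted p = 0.0185) by the same test. It did not pass without HepG2 siFASRL replicate 3 (0.18, limma adjusted p = 0.0684) or siNC replicate 3 (0.14, limma adjusted p = 0.0701). In LM3 THBS1 was not tested with a filter on means of at least 5.

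NTN4 and THBS1 are among the 7 members that were higher in both lines, and their promoters are shown as examples. The table of RefSeq promoters (GRCh38.p14) had entries for 35 of the 45 members, 47 starts in all, and none for AGRN, COL1A1, COL3A1, COL8A1, ITGA7, ITGAL, ITGB2, ITGB3, LAMA1 and LAMC3. In the 250 bases before each start, 5 short motifs were searched on both strands, with the share of all 35116 promoters that hold each in the same window: the GC box GGGCGG (42.6%), CCAAT (32.0%), TATAAA (10.7%), GGAATG, bound by TEAD factors (11.9%), and TGANTCA, bound by AP-1 (6.57%). Capitals mark every match of these, read 5′ to 3′ on the strand of the gene. The sequences are those before NTN4 (chr12:95791156-95791405, minus strand) and before THBS1 (chr15:39580829-39581078, plus strand).
NTN4: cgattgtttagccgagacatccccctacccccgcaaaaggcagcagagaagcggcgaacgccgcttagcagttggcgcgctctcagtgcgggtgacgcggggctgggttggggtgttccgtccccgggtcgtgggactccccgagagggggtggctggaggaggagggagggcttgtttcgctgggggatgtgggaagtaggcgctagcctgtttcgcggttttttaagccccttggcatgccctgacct
THBS1: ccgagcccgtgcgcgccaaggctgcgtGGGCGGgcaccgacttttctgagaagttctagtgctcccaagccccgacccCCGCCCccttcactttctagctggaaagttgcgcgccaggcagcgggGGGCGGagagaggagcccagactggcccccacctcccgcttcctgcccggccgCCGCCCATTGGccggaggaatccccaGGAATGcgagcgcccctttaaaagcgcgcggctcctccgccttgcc
The window before this outermost start of NTN4 held 0 matches, and that before the other tabulated start held 4 GC boxes. That before THBS1 held 4 GC boxes, 1 CCAAT box, which adjoins a GC box, and 1 GGAATG. Of the 47 member starts, 34 had a GC box, 11 CCAAT and 6 TATAAA, where 42.6%, 32.0% and 10.7% of all promoters did. Among members, GGAATG also occurred before COL10A1, COL12A1, ITGB1 and SPARC, and TGANTCA before COL10A1, LAMA3 and LAMB3. A match describes the letters in the window and not the binding of a factor.

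SPARC, a collagen-binding matricellular protein, and NID1, nidogen-1, which joins laminin to type IV collagen, fell in HepG2 and were almost absent from LM3. SPARC was listed at 8.4, 7.38 and 7.74 in HepG2 siNC and 3.34, 2.78 and 3.07 in siFASRL. NID1 was listed at 21.9, 22.3 and 21.3 and 12.02, 10.03 and 10.8. All 3 siFASRL values of both genes lay below all siNC values. SPARC kept 39.1% of its siNC mean, a log2 fold change of -1.12 (standard error 0.07, adjusted p = 5.67e-07), and NID1 kept 50.2%, -0.94 (standard error 0.069, adjusted p = 1.45e-06), both by limma with Benjamini-Hochberg adjustment. NID1 thus fell just short of the fold threshold, which it reached without HepG2 siFASRL replicate 1 (-1.001), and SPARC fell short of it under quantile normalization (-0.92). In LM3 neither gene exceeded 0.09 in any library, and neither was tested there.

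FN1, fibronectin, was the most abundant member in HepG2. It was listed at 603, 588 and 537 under siNC and 739, 685 and 690.4 under siFASRL, with no overlap. The log2 fold change was 0.29 (standard error 0.064, adjusted p = 0.0018) by limma with Benjamini-Hochberg adjustment, but under quantile normalization it was -0.02, and in a joint fit of all 12 libraries it did not pass (limma adjusted p = 0.133). In LM3 FN1 was listed at 0.18, 1.38 and 0.66 under siNC and 0.31, 0.14 and 0.1 under siFASRL and was not tested. Its higher values, in LM3 siNC replicates 2 and 3, were 0.2395% and 0.115% of the HepG2 siNC mean. Transcripts abundant in HepG2 were also higher in these libraries. SERPINA1 was listed at 0.08, 1.73 and 1.26 in LM3 siNC and 0.37, 0.03 and 0.03 in LM3 siFASRL, 0.124% of the HepG2 siNC mean in siNC replicate 2 and 0.0905% in replicate 3, and KRT19 at 0.09, 0.48 and 0.51 and 0.06, 0.03 and 0.03. What part the source of these low values had in the FN1 values of LM3 was not tested.

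The proteoglycans perlecan (HSPG2) and agrin (AGRN), which carry heparan sulfate in basement membranes, were lower after knockdown in both lines without reaching the fold threshold. HSPG2 was 40.04, 48.4 and 37.9 in HepG2 siNC and 25.7, 28.3 and 28.6 in siFASRL, and 32.2, 40.4 and 40.6 and 23.4, 23.3 and 20.8 in LM3. AGRN was 71.9, 91.3 and 67.8 and 52.6, 60.7 and 62.1 in HepG2, and 79.4, 104 and 99.9 and 62.1, 59.2 and 58.9 in LM3. In both genes and both lines the groups did not overlap, and siNC replicate 2 was the highest in HepG2. The log2 fold changes were -0.59 (standard error 0.09, adjusted p = 0.000171) and -0.72 (standard error 0.094, adjusted p = 0.000145) for HSPG2 in HepG2 and LM3 by limma with Benjamini-Hochberg adjustment. For AGRN they were -0.38 (standard error 0.11, adjusted p = 0.00806) and -0.63 (standard error 0.096, adjusted p = 0.000348) by the same test. After the GC adjustment, added after seeing the data, AGRN did not pass in HepG2 (-0.12, limma adjusted p = 0.0972). The other effects passed at smaller sizes, AGRN at -0.34 in LM3 and HSPG2 at -0.39 in HepG2 and -0.47 in LM3.

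Among laminins the β chains parted. LAMB2 and LAMB3 fell in HepG2, whereas LAMB1, the β chain of most other laminin trimers, rose. LAMB2 was 47.3, 53.8 and 45.3 in HepG2 siNC and 23.1, 22.6 and 23.04 in siFASRL. LAMB3, a β chain of epithelial basement membranes, was 36.3, 40.8 and 34.4 and 17.02, 16.3 and 16.4. LAMB1 was 34.8, 34.5 and 32.4 and 44.3, 42.9 and 42.6. None of the 3 genes had overlapping groups in HepG2: LAMB2 kept 47% and LAMB3 44.5% of the siNC mean, and LAMB1 reached 128%. The log2 fold changes were -1.05 (standard error 0.07, adjusted p = 7.76e-07), -1.12 (standard error 0.069, adjusted p = 5.38e-07) and 0.34 (standard error 0.056, adjusted p = 0.000261) by limma with Benjamini-Hochberg adjustment. LAMB2 fell short of the fold threshold without HepG2 siNC replicate 2 (-0.98) and after an adjustment for base composition that was added after seeing the data (-0.92).

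In LM3 LAMB2 and LAMB3 fell as well, to 52.3% and 71.3% of the siNC mean, and LAMB1 did not pass. LAMB2 was 3.6, 4.66 and 4.04 under siNC and 2.22, 2.23 and 1.98 under siFASRL, -0.69 (standard error 0.08, adjusted p = 6.48e-05) by limma with Benjamini-Hochberg adjustment. LAMB3 was 14.7, 18.2 and 17.4 and 11.2, 12.96 and 11.7, -0.45 (standard error 0.087, adjusted p = 0.00137) by the same test. LAMB1 was 57.1, 56.6 and 56.96 and 59.1, 57.8 and 58.9, 0.04 (standard error 0.046, adjusted p = 0.42) by that test. LAMB2 and LAMB3 fell with no overlap of the groups. The values of LAMB1 differed by less than the standard error of the fit, although they too did not overlap, and LAMB1 passed under median-of-ratios scaling (0.16, limma adjusted p = 0.012). The low values of LAMB2 in LM3 make its log2 fold change small beside its percentage.

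The α chains LAMA5 and LAMA3 and the γ chain LAMC1 gave smaller or uneven changes. LAMA5, the α chain of the laminins found in most adult epithelia, was 67.8, 89.4 and 64.8 in HepG2 siNC and 34.9, 43.6 and 44.7 in siFASRL, and 57.8, 81.4 and 78.6 and 57.1, 56.1 and 52.6 in LM3. It fell by 0.83 in HepG2 and by 0.37 in LM3 on the log2 scale (limma adjusted p = 0.000196 and 0.0189), and the LM3 change often failed to pass. Its limma adjusted p was 0.0729 under median-of-ratios scaling (-0.25), 0.213 under GC adjustment (-0.09) and 0.055 with no filter on low values. Without LM3 siFASRL replicate 3, siNC replicate 2 or siNC replicate 3 it was 0.0711 (-0.34), 0.0597 (-0.28) and 0.0635 (-0.31). Replicate 1 of LM3 siNC lay within 1 unit of the highest siFASRL value. LAMA3 was 3.73, 3.48 and 4.1 and 3.41, 2.62 and 2.73 in HepG2, with a log2 fold change of -0.29 (limma adjusted p = 0.00937) that was -0.03 under quantile normalization. In LM3 it was 1.48, 1.37 and 1.1 and 1.69, 1.42 and 1.43, and the groups overlapped, although it passed as higher under quantile normalization (0.52), under median-of-ratios scaling (0.19) and without LM3 siNC replicate 1 (0.17). LAMC1, the γ chain shared by most laminins, was 70.1, 67.3 and 68.1 and 80.3, 72.7 and 73.1 in HepG2 and 37.1, 36.4 and 36.7 and 37.9, 36.4 and 36.8 in LM3. Its log2 fold changes were 0.13 and 0.01, and neither passed (limma adjusted p = 0.0556 and 0.823). It passed in HepG2 in the joint fit (limma adjusted p = 0.0192) and with a variance trend (0.0449), and in LM3 under median-of-ratios scaling (0.0344). In all, 2 of the 8 laminins had an adjusted p under 0.05 with higher values in HepG2 and 4 with lower values. In LM3 these counts were 0 and 3, and under median-of-ratios scaling 3 and 2. These are 75.0% and 37.5% of the laminins, where 89.1% and 77.4% of all tested genes passed in either direction.

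The fibrillar collagens COL3A1 and COL1A1 fell, each past the threshold in a different line. COL3A1 was 30.9, 30.7 and 32.6 in HepG2 siNC and 10.99, 9.5 and 10.5 in siFASRL. COL1A1 was 20.6, 19.6 and 20.2 and 16.97, 15.5 and 14.6 in HepG2. In LM3 COL1A1 was 11.1, 9.53 and 9.17 and 2.82, 3.29 and 2.93. None of these pairs of groups overlapped, and in LM3 siFASRL every COL1A1 value was under 4, where every siNC value was above 9. COL3A1 kept 32.8% of its siNC mean in HepG2, -1.52 (standard error 0.065, adjusted p = 7.54e-08) on the log2 scale by limma with Benjamini-Hochberg adjustment. COL1A1 kept 77.97% in HepG2, -0.34 (standard error 0.065, adjusted p = 0.000702), and 30.3% in LM3, -1.45 (standard error 0.079, adjusted p = 1.32e-06), by the same test. COL3A1 did not exceed 0.02 in any LM3 library and was not tested there. COL5A1, which joins type I fibrils, was 124, 132 and 126 in LM3 siNC and 92.9, 99.5 and 93.03 in siFASRL, and in HepG2 47.7, 51.5 and 43.1 and 52.4, 49.96 and 49.5. It fell in LM3 (-0.42, limma adjusted p = 0.00012), and its groups overlapped in HepG2. After GC adjustment it was -0.24 in LM3 and passed as higher in HepG2 (0.23).

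The summed hepatocyte markers were lower after knockdown in HepG2, and so were the summed markers of fibroblasts and stellate cells. Of 8 such markers 5 were tabulated (PDGFRB, ACTA2, DCN, LUM and RGS5), and the most abundant was RGS5 in HepG2 siNC, ACTA2 in HepG2 siFASRL and PDGFRB in LM3. They summed to 60.6, 62.8 and 63.7 in HepG2 siNC and 35.6, 32.8 and 35.7 in siFASRL, and to 4.85, 5.39 and 4.59 and 3.42, 3.96 and 3.69 in LM3. ACTA2 went the other way in HepG2, 10.6, 12.02 and 9.67 under siNC and 18.9, 15.9 and 17.6 under siFASRL, and RGS5 did in LM3, 0.35, 0.3 and 0.22 and 1.2, 1.25 and 1.34. DCN and LUM stayed under 0.1 in every LM3 library, and none of the 5 was at 0 in HepG2. Their part in the collagen values was not tested. Of 7 endothelial markers only VWF was tabulated, at no more than 0.35 in any library. Of 6 leukocyte markers 3 were tabulated, with CD68 the most abundant in LM3 and LYZ in HepG2, except in siFASRL replicate 1. Their sum was 128, 125 and 123 in HepG2 siNC and 97.95, 88.1 and 89.6 in siFASRL, and 18.2, 15.1 and 16.2 and 18.5, 18.5 and 19.1 in LM3. The lower HepG2 sum came mainly from LYZ, at 84.5, 86.4 and 77.2 under siNC and 42.7, 45.8 and 49.9 under siFASRL. CD68 overlapped between these groups, at 42.1, 36.7 and 44.5 and 54.3, 41.4 and 38.9.

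**Figure D3:**
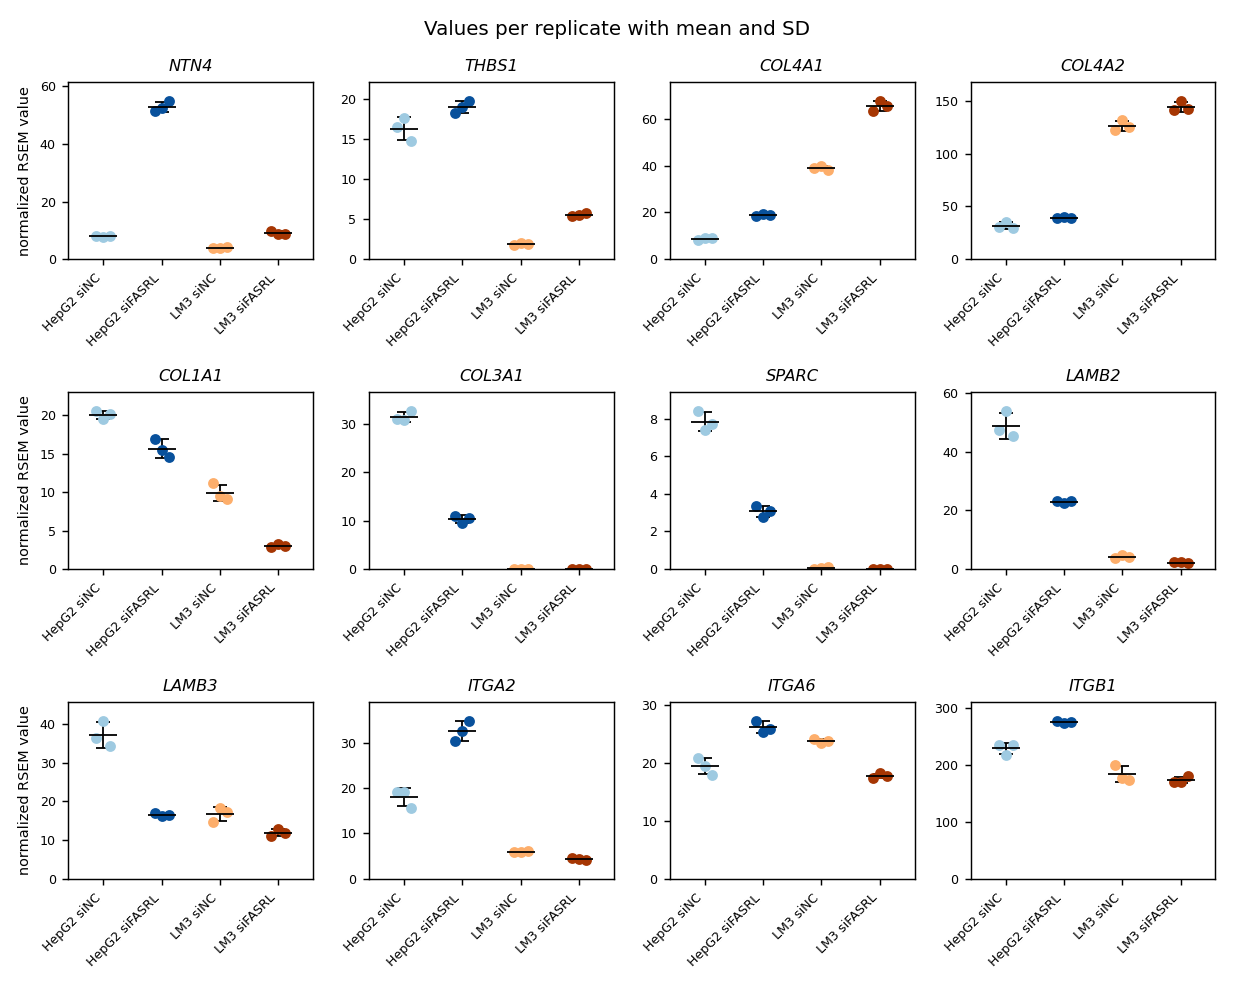
Normalized RSEM values of 12 members in each replicate of the 4 groups, with the mean and SD, on linear axes that start at 0. NTN4 stands at 51.6 to 54.9 in HepG2 siFASRL and at 7.61 to 8.19 in siNC, and ITGA2 and ITGA6 are higher after knockdown in HepG2 and lower in LM3.

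Type IV collagen, the network collagen of basement membranes, has 6 genes that lie as 3 head-to-head pairs, and all 6 were tabulated. COL4A1 (chr13:110148963-110307157) and COL4A2 (chr13:110307284-110513209) start 126 bases apart on opposite strands. COL4A4 (chr2:226967360-227164488) and COL4A3 (chr2:227164624-227314792) are separated by 135 bases, and COL4A6 (chrX:108155614-108439458) and COL4A5 (chrX:108439838-108697545) by 379. The genes of a pair share the sequence between them and could be compared with each other. The bases between the genes are therefore shown for the first pairs, and for the last the 250 bases before COL4A5. They are from RefSeq, GRCh38.p14, on the plus strand, at chr13:110307158-110307283, chr2:227164489-227164623 and chrX:108439588-108439837, with the same motifs in capitals on either strand.
COL4A1 to COL4A2: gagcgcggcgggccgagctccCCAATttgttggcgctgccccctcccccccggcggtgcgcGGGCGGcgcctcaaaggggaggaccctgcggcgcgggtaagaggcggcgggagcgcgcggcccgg
COL4A4 to COL4A3: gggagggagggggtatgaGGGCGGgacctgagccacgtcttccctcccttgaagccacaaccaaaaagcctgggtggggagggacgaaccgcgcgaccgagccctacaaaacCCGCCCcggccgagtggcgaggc
Before COL4A5: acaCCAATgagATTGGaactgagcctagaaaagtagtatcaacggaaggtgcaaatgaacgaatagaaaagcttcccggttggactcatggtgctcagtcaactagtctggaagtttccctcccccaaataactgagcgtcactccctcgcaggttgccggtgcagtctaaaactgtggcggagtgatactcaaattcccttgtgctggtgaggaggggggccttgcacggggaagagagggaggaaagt
The sequence between COL4A1 and COL4A2 held 1 CCAAT box and 1 GC box, that between COL4A4 and COL4A3 held 2 GC boxes, and that before COL4A5 held 2 CCAAT boxes and 0 GC boxes. The start of COL4A4 used for the motif search lies inside the gene, at chr2:227164205, and the window before it held 0 matches.

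COL4A1 and COL4A2 rose by different amounts. COL4A1 was 8.26, 9.05 and 8.82 in HepG2 siNC and 18.4, 19.2 and 18.98 in siFASRL, and 38.8, 39.7 and 38.2 and 63.2, 67.5 and 65.4 in LM3. COL4A2 was 30.1, 35.6 and 29.9 and 39.5, 39.99 and 38.9 in HepG2, and 122, 132 and 125 and 142, 150.03 and 142 in LM3. Both rose with no overlap in either line, COL4A1 by more. The COL4A1 mean rose 2.17-fold in HepG2, 1.03 (standard error 0.056, adjusted p = 2.57e-07) on the log2 scale, and 1.68-fold in LM3, 0.73 (standard error 0.05, adjusted p = 3.76e-06), by limma with Benjamini-Hochberg adjustment. For COL4A2 the log2 fold changes were 0.31 and 0.19 (limma adjusted p = 0.00298 and 0.00962), and under quantile normalization the LM3 value was 0.09 and did not pass (limma adjusted p = 0.169), whereas it was 0.31 under median-of-ratios scaling and 0.40 after GC adjustment. Without HepG2 siNC replicate 1, COL4A1 in HepG2 was at 0.9999, just under the fold threshold.

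The ratio of the COL4A1 value to the COL4A2 value was 0.275, 0.254 and 0.295 in HepG2 siNC and 0.466, 0.4801 and 0.488 in siFASRL. In LM3 it was 0.317, 0.301 and 0.304 and 0.446, 0.4502 and 0.459. Both chains enter the same trimer, and their transcripts shifted toward COL4A1 in all 6 knockdown libraries. Each difference had p = 0.1 in a two-sided exact permutation test, the smallest that 3 against 3 allows, and 0.15 after Benjamini-Hochberg adjustment over the 6 ratio comparisons. COL4A5 was 19.7, 21.5 and 18.8 in HepG2 siNC and 9.59, 10.2 and 9.72 in siFASRL, and 10.2, 11.3 and 10.3 and 5.75, 6.37 and 6.14 in LM3. COL4A6 was 1.11, 1.06 and 1.3 and 1.43, 1.39 and 1.64 in HepG2, and 0.69, 0.76 and 0.73 and 1.44, 1.31 and 1.28 in LM3. So the genes of this pair moved in opposite directions in both lines: COL4A5 by -0.95 and -0.71, COL4A6 by 0.21 and 0.44 on the log2 scale. With a pseudocount of 0.1 COL4A5 passed the fold threshold in HepG2. The limma adjusted p was 7.76e-07 and 1.08e-05 for COL4A5 and 0.0143 and 6.92e-05 for COL4A6. The mean ratio of COL4A5 to COL4A6 in HepG2 was 17.5 ± 2.902 under siNC and 6.66 ± 0.707 under siFASRL (SD, n = 3). In LM3 these means were 14.6 ± 0.3496 and 4.55 ± 0.484, and each line had a two-sided exact permutation p of 0.1 (0.15 adjusted over the 6).

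COL4A3 and COL4A4, whose chains form a network with the α5 chain in the kidney, lung and cochlea, were low in both lines. In LM3 COL4A4 was 3.32, 3.36 and 2.77 under siNC and 2.4, 2.49 and 2.54 under siFASRL, and in HepG2 0.39, 0.47 and 0.5 and 0.14, 0.24 and 0.24. COL4A3 was 1.43, 1.66 and 1.5 and 1.17, 1.3 and 1.3 in LM3, and 0.27, 0.23 and 0.19 and 0.09, 0.1 and 0.09 in HepG2. Both were lower after knockdown in LM3, COL4A4 at -0.25 and COL4A3 at -0.16 on the log2 scale (limma adjusted p = 0.00734 and 0.0244). Both changed sign under quantile normalization, where COL4A3 passed as higher and COL4A4 did not pass. Under median-of-ratios scaling COL4A3 did not pass. The ratio of COL4A3 to COL4A4 overlapped between groups in both lines (two-sided exact permutation p = 0.7 in HepG2 and 0.8 in LM3, both 0.8 adjusted over the 6).

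**Figure D4:**
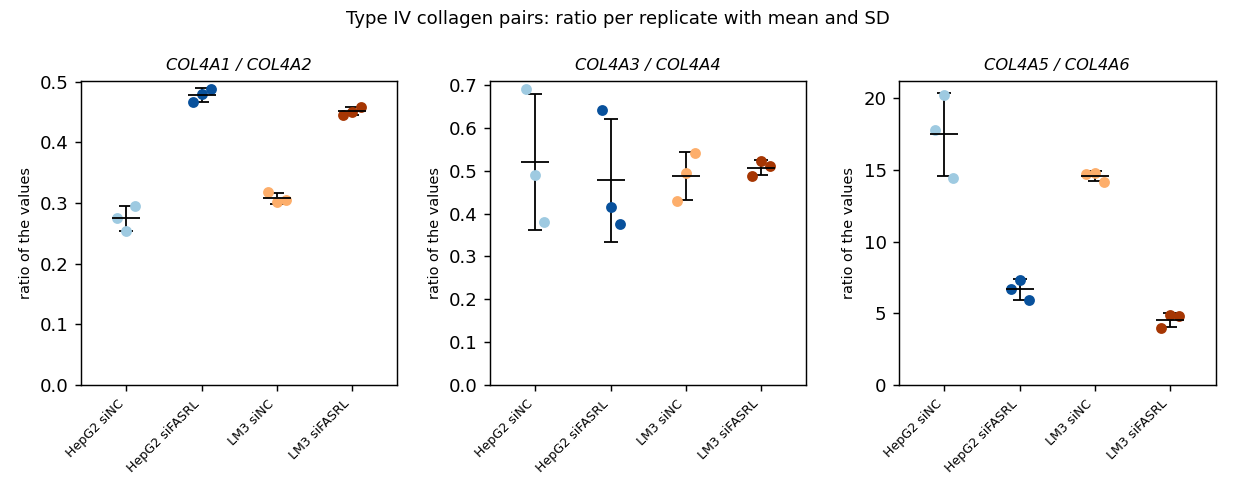
Ratio of the values of the genes of each type IV collagen pair in every replicate of the 4 groups, with the mean and SD, on linear axes that start at 0. The ratio of COL4A1 to COL4A2 is higher and that of COL4A5 to COL4A6 is lower in every siFASRL library than in every siNC library of the same line, and that of COL4A3 to COL4A4 overlaps.

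Of the other collagens, COL18A1, the source of endostatin, fell in both lines, to 56.2% of the siNC mean in HepG2 (-0.80 on the log2 scale, limma adjusted p = 3.71e-05) and 48.9% in LM3 (-0.98, limma adjusted p = 1.02e-05). In LM3 it passed the fold threshold with a pseudocount of 0.1, without siFASRL replicate 2 and without siNC replicate 1. Its relative COL15A1 was 61.7, 66.04 and 61.3 in HepG2 siNC and 48.1, 48.3 and 48.8 in siFASRL, and 9.33, 9.78 and 8.66 and 6.48, 7.15 and 7.4 in LM3, lower without overlap in both. COL7A1, which forms the anchoring fibrils of epithelia, was 18.3, 21.5 and 16.6 and 22.1, 26.8 and 26.9 in HepG2 and 64.3, 75.96 and 74.1 and 88.9, 89.7 and 83.9 in LM3, higher without overlap in both. Its log2 fold changes were 0.41 and 0.29 (limma adjusted p = 0.00377 and 0.00511), or 0.62 and 0.55 after GC adjustment, and those of COL15A1 were -0.37 and -0.36 (limma adjusted p = 0.000135 and 0.00104). COL12A1, a collagen that coats fibrils, rose in HepG2 (0.65, limma adjusted p = 2.73e-06). Of 16 collagens tested in HepG2, 7 were higher and 8 lower with an adjusted p under 0.05, and of 14 tested in LM3, 4 were higher and 7 lower, where 89.1% and 77.4% of all tested genes passed in either direction. Under quantile normalization the LM3 counts were 6 and 5.

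None of the integrins (0 of 7 tested in HepG2 and 0 of 6 in LM3) reached the fold threshold in limma, although ITGB2 was called lower in HepG2 with a pseudocount of 0.1. Of all genes 3.61% were called higher and 6.79% lower in HepG2, and 1.42% and 6.2% in LM3. In HepG2 5 of the 7 were higher and 1 lower with an adjusted p under 0.05, and in LM3 2 of the 6 were higher and 2 lower. These are 85.7% and 66.7%, beside 89.1% and 77.4% of all genes. The HepG2 split was as one-sided under quantile normalization (7 and 1 of the integrins then tested) and under median-of-ratios scaling (5 and 1). Shares of all genes by direction on adjusted p are not given here, so this split is a description only. ITGB1, the β subunit of most receptors for collagen, laminin and fibronectin, was 235, 217 and 235 in HepG2 siNC and 277, 273 and 275 in siFASRL. In LM3 it was 199, 177 and 174 and 170.1, 170.1 and 179.7. It rose in HepG2 (120.2% of the siNC mean, 0.26 on the log2 scale, limma adjusted p = 0.00137), and its groups overlapped in LM3. Under quantile normalization ITGB1 passed as lower in LM3 (-0.22, limma adjusted p = 0.0168). ITGA2, which with ITGB1 binds collagen, was 19.2, 19.03 and 15.7 in HepG2 siNC and 30.4, 32.6 and 34.8 in siFASRL. In LM3 it was 5.81, 5.98 and 6.15 and 4.49, 4.33 and 4.23. ITGA6, the α subunit of laminin receptors, was 20.7, 19.4 and 17.95 and 27.2, 25.2 and 25.9 in HepG2, and 24.1, 23.5 and 23.7 and 17.4, 18.1 and 17.6 in LM3. Both α subunits were higher in all 3 HepG2 knockdown libraries and lower in all 3 of LM3 than in any control library of the line. ITGA2 changed by 0.83 (standard error 0.085, adjusted p = 1.20e-05) in HepG2 and -0.38 (standard error 0.049, adjusted p = 0.000128) in LM3, and ITGA6 by 0.41 (standard error 0.066, adjusted p = 0.000227) and -0.40 (standard error 0.047, adjusted p = 7.39e-05), by limma with Benjamini-Hochberg adjustment.

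ITGA1, the other collagen-binding α subunit in the tables, rose in both lines, to 152% of the siNC mean in HepG2 (0.58, limma adjusted p = 9.55e-06) and 111% in LM3 (0.14, limma adjusted p = 0.0341). ITGB5 and ITGB8, partners of the αv subunit, were higher in HepG2 and LM3 respectively (0.43 and 0.23, limma adjusted p = 0.000208 and 0.00286). ITGB8 was higher without overlap in HepG2 too, but did not pass (0.14, limma adjusted p = 0.057). It passed there with a pseudocount of 0.1, under quantile normalization and after GC adjustment. ITGB2 and ITGAL form a leukocyte receptor and were low. ITGB2 was 3.03, 3.74 and 2.74 in HepG2 siNC and 1.35, 1.26 and 1.52 in siFASRL, and ITGAL 0.72, 0.66 and 0.6 and 0.1, 0.2 and 0.25, each lower without overlap. ITGB2 did not exceed 0.05 in LM3.

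The difference between the lines in the effect of knockdown was tested as an interaction over all 12 libraries (LM3 effect minus HepG2 effect, limma with Benjamini-Hochberg adjustment). Of 40 members tested, 2 were called with a more positive effect in LM3 (COL3A1 and SPARC) and 3 with a more negative one (NTN4, ITGA2 and COL1A1), where 2.31% and 2.53% of all 8285 genes were called in these directions. COL3A1 and SPARC met the filter through HepG2 only, so their positive difference follows from their fall there, and the count of 2 gives no support for a difference between the lines. By adjusted p alone 26 of the 40 (65.0%) differed, where 46.7% of all genes did. The 26 include COL16A1, COL3A1, FN1, ITGB2, NID1 and SPARC, which met the filter through HepG2 and were not tested in LM3. This share therefore gives no support for a difference between the lines either. NTN4 rose in both lines and by 1.57 more in HepG2 on the log2 scale, a difference of -1.57 (standard error 0.077, adjusted p = 9.00e-09) by limma with Benjamini-Hochberg adjustment. For COL1A1 the difference was -1.10 (standard error 0.105, adjusted p = 2.41e-06) and for ITGA2 -1.21 (standard error 0.102, adjusted p = 8.33e-07) by the same test. COL3A1 (1.51) and SPARC (1.06) are at or near 0 in LM3. For THBS1 the difference was 0.97 and for NID1 0.92, just under the fold threshold (limma adjusted p = 2.69e-06 and 1.17e-06). NID1 did not exceed 0.04 in any LM3 library, so its difference follows from its fall in HepG2. Under quantile normalization COL1A1 (-0.70), ITGA2 (-0.93) and SPARC (0.96) fell short of the threshold, as did SPARC with a pseudocount of 0.1 (0.86), and with a filter on means of at least 5 SPARC was not tested. THBS1 crossed it with a pseudocount of 0.1, under quantile normalization, median-of-ratios scaling and GC adjustment, without HepG2 siNC replicate 3 and without LM3 siNC replicate 2. NID1 crossed it under GC adjustment and FN1 without LM3 siNC replicate 1. The baseline comparison and both knockdown comparisons share the siNC libraries.

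Under siNC more members passed the threshold between the lines than after knockdown in either. Of 40 members tested, 8 (20%) were called higher in LM3 and 15 (37.5%) lower, where 7.74% and 15.6% of all 8176 genes were called. By adjusted p alone 36 of the 40 (90.0%) differed, where 80.9% of all genes did. A gene that passes the filter on low values in 1 line only has to differ, so the counts are a description. LAMA3 and COL16A1 no longer passed under quantile normalization, nor did LAMA3 without replicate 3 of either siNC group. With any HepG2 library left out COL3A1, NID1, SPARC, COL8A1, COL16A1 and ITGB2 no longer met the filter, and with any LM3 library left out COL4A3 and COL4A4 did not. Line and anything else that set the cultures of the lines apart cannot be told apart.

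On log2(value + 1) the 6 largest differences among the 15 members called lower in LM3 were those of FN1, COL3A1, NID1, LAMB2, SPARC and COL15A1. By the ratio of means the order was another, with COL3A1 (1886), NID1 (1091) and FN1 (779) first and COL8A1 (183) next, and ratios to values near 0 have no known error. The FN1 mean was 576 ± 34.6 in HepG2 siNC and 0.74 ± 0.604 in LM3 siNC (SD, n = 3), -8.43 (standard error 0.215, adjusted p = 5.84e-09) on the log2 scale by limma with Benjamini-Hochberg adjustment. COL3A1 was listed at 0.01, 0.02 and 0.02 in LM3 siNC, NID1 at 0, 0.04 and 0.02 and SPARC at 0.02, 0.04 and 0.09, against means of 31.4 ± 1.05, 21.8 ± 0.468 and 7.84 ± 0.517 in HepG2 siNC. Their log2 differences were -4.99, -4.48 and -3.07 (limma adjusted p = 1.05e-10, 1.20e-10 and 1.63e-09). These sizes depend on the added 1, and with 0.1 in its place they were -8.08, -7.53 and -5.75. LAMB2 was 11.9 times higher in HepG2 by the ratio of means, -3.29 (standard error 0.094, adjusted p = 1.12e-08) by limma with Benjamini-Hochberg adjustment, and COL15A1 6.81 times, -2.64 (standard error 0.063, adjusted p = 3.94e-09). THBS1 (-2.57), COL27A1 (-2.52) and COL8A1 (-2.36) followed. Of the 45 members 6 stayed under 0.1 in every LM3 library, namely COL3A1, COL8A1, COL8A2, ITGB2, NID1 and SPARC.

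The 8 members called higher in LM3 were COL4A1, COL4A2, COL7A1, LAMA1, COL4A4, COL5A1, LAMC3 and COL4A3. COL4A1 was 4.47 times and COL4A2 3.97 times as high as in HepG2 by the ratio of siNC means, 2.04 (standard error 0.056, adjusted p = 8.63e-09) and 1.96 (standard error 0.078, adjusted p = 8.28e-08) on the log2 scale by limma with Benjamini-Hochberg adjustment. COL7A1 was 3.804 times as high (1.88) and COL5A1 2.69 times (1.41). LAMA1, the α chain of the laminin of the early embryo, was 4.07, 4.17 and 4.32 in HepG2 siNC and 16.6, 19.3 and 17.9 in LM3 siNC, 1.87 (standard error 0.065, adjusted p = 3.67e-08) by the same test. COL4A4 (1.51), LAMC3 (1.34) and COL4A3 (1.04) were higher too. All these groups were separate. The other type IV genes, COL4A5 (-0.86, limma adjusted p = 5.64e-06) and COL4A6 (-0.32, limma adjusted p = 0.00124), were lower in LM3, but COL4A6 was higher under quantile normalization. LAMA5, AGRN, HSPG2 and ITGB5 overlapped between the lines, and none of these 4 passed (limma adjusted p from 0.0731 for AGRN to 0.871 for LAMA5), although AGRN and HSPG2 passed after GC adjustment. ITGB1, at 235, 217 and 235 in HepG2 and 199, 177 and 174 in LM3, differed by -0.32 only.

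**Figure D5:**
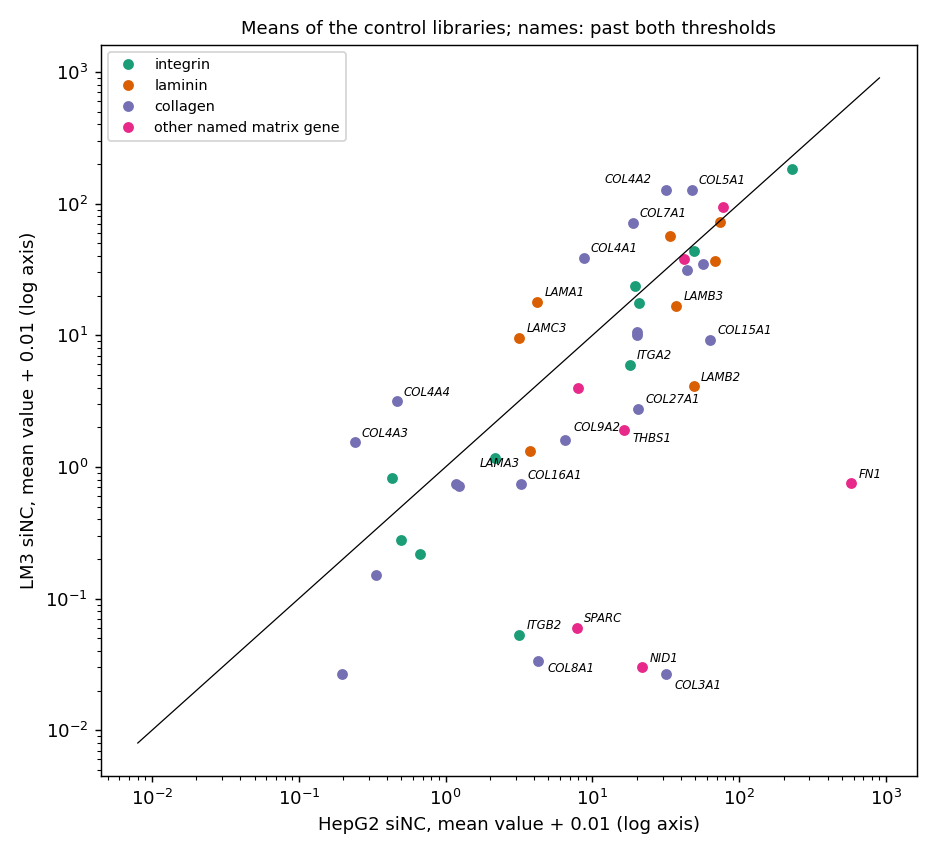
Mean siNC value of each member in HepG2 and in LM3 plus 0.01, on log axes, coloured by family, with the line of equal values. Named genes passed both thresholds; COL3A1, FN1 and NID1 lie farthest below the line, and COL4A1, COL4A2 and COL7A1 lie above it.

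The filter on low values left 5 members untested in every comparison because of low values: ITGA7, ITGAL, ITGB3, COL8A2 and COL10A1. Of these, ITGB3, the β subunit of a vitronectin receptor, was 0.45, 0.47 and 0.54 in HepG2 siNC and 0.92, 0.94 and 1.09 in siFASRL. COL10A1 was 0.31, 0.34 and 0.33 and 0.09, 0.13 and 0.1. Both sets of groups were separate, ITGB3 higher and COL10A1 lower after knockdown. All 5 stayed under 1.5 in every group mean, as did COL4A6 and COL26A1.

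The knockdown effect of members went with the base composition of their transcripts. Across the 38 members tested in HepG2, GC content and log2 fold change had a Pearson r of -0.384 and a Spearman rho of -0.391, and across the 32 in LM3 -0.371 and -0.357. Over all tested genes the Pearson r was -0.066 in HepG2 and -0.116 in LM3. These correlations are across genes of the same libraries, which are not independent replicates. Of 14 members with at least 60% GC in HepG2, 9 were lower and 3 higher with an adjusted p under 0.05, and of 12 with under 50%, 1 was lower and 9 higher. Of all tested genes, 684 were lower and 498 higher of 1286 with at least 60%, and 1728 lower and 1960 higher of 4183 with under 50%. In LM3, 7 of 12 members with at least 60% were lower and 2 higher, but of 12 with under 50%, 4 were lower and 4 higher. Of all genes tested in LM3, 586 were lower and 306 higher of 1147, and 1566 lower and 1428 higher of 3906. LAMA5, AGRN, COL18A1 and HSPG2 are among the first and NTN4, ITGA2 and ITGB1 among the second. SPARC (47.3% GC) fell and COL27A1 (61.3%), COL4A2 (62.0%) and COL7A1 (64.8%) rose in HepG2 against this order. Libraries of a group also differed along GC content: the slope of a library against its group mean was 0.058 per 10% GC in HepG2 siNC replicate 2 and -0.080 in LM3 siNC replicate 1, and between -0.033 and 0.040 in the others. After an adjustment of each library for GC, added after seeing the data, HepG2 effects were -0.92 for LAMB2, -1.01 for LAMB3, -0.12 for AGRN, -0.20 for COL1A1 and 0.46 for COL4A2. LM3 effects were -1.25 for COL1A1, -0.09 for LAMA5 and -0.29 for LAMB3. COL4A3 no longer passed in LM3, and ITGB8 in HepG2 and COL12A1 in LM3 came to pass. NTN4 (2.57 and 1.05) and THBS1 in LM3 (1.202) stayed near their values. The part of base composition in these effects beyond this adjustment was not tested.

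Genes that act beside these families were followed in 4 lists, whose directions were not compared between scalings. Genes for the modification, export and crosslinking of collagen had 23 of 39 symbols tabulated. Some genes stand in the lists under both an old and a new symbol, so symbols outnumber genes. Of 22 tested, 3 were higher and 15 lower in HepG2 with an adjusted p under 0.05, and of 21 in LM3, 2 and 15. For these counts and those of the lists below, 89.1% of all tested genes passed in HepG2 and 77.4% in LM3, in either direction. Shares of all genes by direction are not given here, so the splits into higher and lower are a description only. The median log2 fold change of the collagen processing genes was -0.43 in HepG2 and -0.54 in LM3, where the median of all genes was 0.10 and -0.06. PCOLCE, the enhancer of procollagen cleavage, was 11.1, 10.8 and 10.2 in HepG2 siNC and 2.74, 3.19 and 3.2 in siFASRL, and 5.23, 5.55 and 6.24 and 1.34, 1.16 and 1.32 in LM3. It fell without overlap in both lines, -1.53 (standard error 0.066, adjusted p = 7.69e-08) and -1.55 (standard error 0.068, adjusted p = 4.80e-07) by limma with Benjamini-Hochberg adjustment. The lysyl oxidase LOXL4 fell in HepG2 (-1.38) and LOXL1 (-1.25) and SEC24D, a coat protein for procollagen export (-1.06), fell in LM3, whereas the prolyl hydroxylase P3H2 rose there (1.10), each past the threshold.

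Other matrix proteins had 34 of 59 symbols tabulated. Of 30 tested, 9 were higher and 20 lower in HepG2 with an adjusted p under 0.05, and of 20 in LM3, 3 and 13, with medians of -0.58 and -0.37. CYR61, a matricellular integrin ligand, was 24.6, 23.96 and 24.9 in HepG2 siNC and 214, 209 and 211 in siFASRL, and 16.6, 15.9 and 19.2 and 90.7, 83.8 and 87.6 in LM3. It rose in both lines, 3.06 (standard error 0.052, adjusted p = 6.79e-10) and 2.28 (standard error 0.074, adjusted p = 1.95e-07) by limma with Benjamini-Hochberg adjustment. Osteopontin (SPP1) was 390.04, 352 and 337 in HepG2 siNC and 88.4, 89.2 and 93.9 in siFASRL, a log2 fold change of -1.98 (standard error 0.067, adjusted p = 2.73e-08) by the same test. The small proteoglycans BGN (-1.51) and LUM (-1.44) fell and versican, VCAN (1.25), rose in HepG2. ECM1 (-1.58), nephronectin, NPNT (-1.32), and LTBP4 (-1.20) fell in LM3.

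Partners of integrins at the membrane and in the cytoplasm made up another list, with 35 of 47 symbols tabulated. Of 35 tested, 23 were higher and 6 lower in HepG2 with an adjusted p under 0.05, and of 34 in LM3, 11 and 12, with medians of 0.34 and 0.05. LPP, a focal adhesion protein, rose in HepG2 from 5.23 ± 0.0854 to 11.6 ± 0.272 (SD, n = 3), 1.02 (standard error 0.052, adjusted p = 1.86e-07) by limma with Benjamini-Hochberg adjustment. NEDD9, a docking protein of focal adhesion kinase, rose in LM3 from 4.88 ± 0.266 to 12.6 ± 0.389 (1.21). The tetraspanin CD9 was 96.9, 102 and 101 in HepG2 siNC and 42.7, 53.6 and 50.8 in siFASRL, and 84.96, 90.3 and 83.4 and 32.9, 34.6 and 33.9 in LM3. It fell past the threshold in both lines (-1.02 and -1.32).

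Receptors for matrix other than integrins had 17 of 20 genes tabulated. Of 16 tested, 6 were higher and 8 lower in HepG2 with an adjusted p under 0.05, and of 13 in LM3, 4 and 8, with medians of -0.21 and -0.32. The collagen receptor DDR1 was 51.1, 50.9 and 50.1 in HepG2 siNC and 25.7, 23.5 and 21.9 in siFASRL, and 10, 10.3 and 9.8 and 2.84, 2.83 and 2.63 in LM3. It fell without overlap in both lines, -1.07 (standard error 0.066, adjusted p = 5.12e-07) and -1.55 (standard error 0.05, adjusted p = 1.95e-07) by limma with Benjamini-Hochberg adjustment. BCAM, a receptor for LAMA5, fell in HepG2 from 47.8 ± 3.87 to 20.6 ± 0.561 (SD, n = 3, -1.17). Among syndecans, SDC4 rose in HepG2 (1.35) and SDC3 (-1.24) and SDC1 (-1.03) fell in LM3.

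The values are RNA levels in 2 cultured lines, and protein and deposited matrix were not measured. With 3 libraries per group a single library moved several calls, among them NTN4 in LM3 and LAMB2 and COL4A1 in HepG2. The knockdown cannot be checked in these tables, the depth of each library and the rule by which genes were tabulated are not known, and COL1A2, the partner chain of COL1A1, is missing, so type I collagen cannot be described whole. Integrin partners ITGAV, ITGA5 and ITGB4 are missing as well. No libraries of a rescue are included, so effects of the siRNA apart from FASRL are not separable here.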

How the data were processed

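RNA-seq values of 12 libraries were used. The submitters' notes name HISAT2 and Bowtie2. The deposited values are normalized RSEM values the authors computed, not counts, so depth is unknown. Strand is not stated, and genes that overlap on opposite strands cannot be told apart. The notes name hg19, the chromosome accessions belong to GRCh38, and coordinates were taken from RefSeq. The members and lists were chosen with earlier results of these data known. limma (3.58.1, R 4.3.3) was fitted on log2(value + 1), per line and, for the interaction, over all 12, with Benjamini-Hochberg adjustment. Genes had to reach 1 in 3 or more libraries of the fit. The fits were tested on simulated data. Of genes with a mean of at least 5, 12 of 6367 (0.188%) had HepG2 effects between -0.20 and -0.04, and 617 of 5937 (10.4%) had LM3 effects there, so few genes with a small fall in HepG2 are tabulated. Genes given in every library were those called after knockdown or in the interaction, the 6 called members per direction with the largest baseline difference, 22 core genes where tested, and, with fewer values, up to 3 called genes per list, line and direction. Other members, such as COL4A5, COL4A6, COL18A1 and ITGA1, were described after their values were seen. Alternatives were the pseudocount, filters, scaling, a joint fit, a variance trend, a replicate block, left-out replicates and, added after seeing the data, GC adjustment. Figures used matplotlib (3.10.9).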

Additional observations from a re-analysis of the deposited data

Results flagged for a closer look

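By the interaction test (the log2 effect in LM3 less that in HepG2, limma with Benjamini-Hochberg adjustment) 26 of 40 members differed between the lines on adjusted p, and for 5 of them the difference was also at least 1. These 5 are described here with ITGA6, since ITGA2 and ITGA6 had effects of opposite direction with an adjusted p under 0.05 in each line. The 26 include COL16A1, COL3A1, FN1, ITGB2, NID1 and SPARC, which met the filter through HepG2 and were not tested in LM3, so that count is a description. The difference was -1.57 for NTN4, which rose in both lines. It was -1.21 for ITGA2 and -0.81 for ITGA6, whose siFASRL values lay above all siNC values in HepG2 and below them in LM3. It was -1.10 for COL1A1, which fell in both lines and more in LM3. It was 1.51 for COL3A1 and 1.06 for SPARC, which fell in HepG2 and did not exceed 0.09 in any LM3 library, so that the direction of their difference was fixed by the fall in HepG2.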

How the results depend on the processing

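Of 757 values of 50 results on single genes under the alternatives, 740 kept their direction and their side of the threshold, 10 no longer passed it, 1 came to pass it and 6 changed sign. This threshold joins fold and adjusted p, so values that crossed an adjusted p of 0.05 alone count among the 740. Such values include those of LAMA5 in LM3 and of THBS1 and AGRN in HepG2. The filters, the joint fit, the variance trend and the replicate block left each log2 fold change as it was. Their values among the 757 therefore could not change sign or cross the fold threshold. Sign changed for FN1 in HepG2 (-0.0168), LAMC1 in HepG2 (-0.0223) and LM3 (-0.052) and LAMB1 in LM3 (-0.0594) under quantile normalization, for ITGB1 in LM3 under median-of-ratios scaling (0.0374) and for LAMC1 in LM3 without siFASRL replicate 1 (-0.004, with a range from -0.004 to 0.0244 over the left-out libraries). The causes were not tested. By adjusted p alone, which drops the fold minimum, members past the threshold numbered 34 in HepG2, 22 in LM3, 26 in the interaction and 36 at baseline. Under quantile normalization 3 passed in the interaction, and with a filter on means of at least 5, which tests fewer members, 15 passed at baseline. With each replicate left out, 5 to 7 passed in HepG2, 2 to 4 in LM3, 5 to 6 in the interaction and 16 to 22 at baseline, where a line left with 2 libraries cannot meet the filter alone, so that COL3A1, NID1 and SPARC drop out. The log2 difference of the COL4A1 to COL4A2 ratio ranged from 0.75 to 0.86 in HepG2 and from 0.54 to 0.58 in LM3 with each library left out. Quantile normalization raised the share of higher genes among all called ones from 34.7% to 47.4% in HepG2, from 18.6% to 38.1% in LM3 and from 33.1% to 47.3% at baseline, and moved the baseline median of all genes by 0.162. Median-of-ratios scaling raised the LM3 share to 31.1% and moved the LM3 knockdown median of all genes by 0.109. GC adjustment raised the share to 43.9% in HepG2 and 33.9% in LM3.

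Same-numbered replicates of siFASRL and siNC deviated from their group means with correlations of 0.312, 0.363 and -0.195 in HepG2 and -0.083, 0.091 and -0.163 in LM3, so the numbers were not taken to pair the libraries. Same-numbered siNC libraries of HepG2 and LM3 had correlations of 0.448, 0.534 and -0.287, and those with different numbers from -0.640 to 0.465. The source of these was not tested. With the replicate number as a block, 6 members were called in HepG2, 3 in LM3, 5 in the interaction and 23 at baseline, as without it. The block leaves the log2 fold changes as they were, so these counts do not show whether the libraries are paired. With unknown depth, low values such as those of COL3A1 in LM3 have no known counting error.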
